A study of Mus musculus with 6 samples.

Results

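The Nduf genes encode the nuclear subunits of respiratory complex I and proteins that help to build it. They were measured on Affymetrix arrays in quadriceps, a thigh muscle, of mice with and without an ERRγ transgene. ERRγ, the product of Esrrg, is an orphan nuclear receptor that binds near many genes of oxidative metabolism. The 3 transgenic arrays came from animals whose label reads hSkeletal Actin -ERRg transgenic, that is, the receptor under control of α-skeletal actin regulatory sequence, a driver used for expression in muscle fibres. The 3 wild-type arrays came from animals without the transgene. All animals of both genotypes were C57/BL6 males of 8 weeks, and the titles call the arrays biological replicates. The labels state neither pooling nor how many transgenic founder lines were used. All probe sets whose annotation names a single gene with a symbol beginning with Nduf were taken, which gave 88 of 45037 non-control probe sets. They stand for 44 genes, namely 34 complex I subunit genes, 8 assembly factor genes with symbols beginning with Ndufaf, and Ndufa4 with Ndufa4l2. Ndufa4 carries a complex I name, but its protein is now assigned to cytochrome c oxidase, so this pair was counted apart.

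Complex I takes electrons from NADH, passes them along a chain of iron-sulphur clusters to ubiquinone, and pumps protons across the inner mitochondrial membrane. Its N module oxidises NADH, its Q module reduces ubiquinone, and its proximal and distal membrane arms carry the proton pumps. A small set of core subunits, conserved from bacteria, holds the flavin and the clusters, and the many accessory subunits surround them. The hydrophobic core of the membrane arm is encoded in mitochondrial DNA, so nuclear and mitochondrial genes supply the same enzyme. Muscle fibres that rely on oxidation hold much of this enzyme.

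The deposited values are MAS5 signals on a linear scale, with the same trimmed mean of 200 on every array. Differences and tests are on log2(signal + 16), which understates changes of dim probe sets, and each gene's values come from whichever of its single-gene probe sets was brightest on average. A probe set was tested when its mean over the 6 arrays exceeded 37.8, and a gene passed at a limma adjusted p under 0.05 over all 26995 tested probe sets. Median signals were 57.1 to 61.9 on transgenic and 52.1 to 56.3 on wild-type arrays. Scaling the arrays to a common median therefore shifted the log2 differences of all genes by -0.14 at the median. As deposited, 958 genes were called higher and 721 lower (57.1% of calls higher). Scaled to a common median the calls were 543 higher and 1232 lower (30.6% of calls higher). The Esrrg probe set with the highest signal gave 14427, 13808 and 12697 on transgenic arrays, against 71.6, 61.0 and 24.1 on wild-type arrays. The log2 difference of Esrrg was 7.72 (SE 0.24, limma adjusted p = 1.71e-07), and an exact permutation test gave p = 0.1, the smallest that 3 arrays against 3 allow. Its dimmer probe sets did not pass, with differences of 0.40 and 0.35 (limma adjusted p = 0.284 and 0.443).

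In transgenic muscle 24 complex I subunit genes rose and 0 fell, out of 33 that were tested and 34 measured, which leaves 9 that did not pass limma. The risers span all 4 structural modules, and their transgenic means were 1.26 to 1.68 times the wild-type means. Across all 12529 tested genes the share higher was 7.65% and the share lower 5.75%. The median log2 difference of the subunit genes was 0.41, beside 0.03 over all tested genes. With arrays scaled to a common median these values were 0.26 and -0.11. The members that did not pass lay between 0.02 and 0.34, of which Ndufa2, Ndufb6, Ndufc1 and Ndufs5 turned negative with arrays scaled to a common median. At an unadjusted p under 0.05, 27 subunit genes were higher and 0 lower, beside 15.5% higher and 12.4% lower over all tested genes. All transgenic signals lay above all wild-type signals at 27 of the 33 genes, beside 18.6% of all tested genes. These 27 include all 24 risers and Ndufa7, Ndufv3 and Ndufa13, which did not pass. No tested Nduf gene came near the limit for testing, as the lowest signal of any on any array was 144.8. With the arrays scaled to a common median, 13 subunit genes rose. Without the filter 15 rose, and without an intensity trend in the variance model 6 rose, namely Ndufv1, Ndufs1, Ndufa9, Ndufa8, Ndufb10 and Ndufab1, which passed under each of the 16 alternatives.

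**Figure D1:**
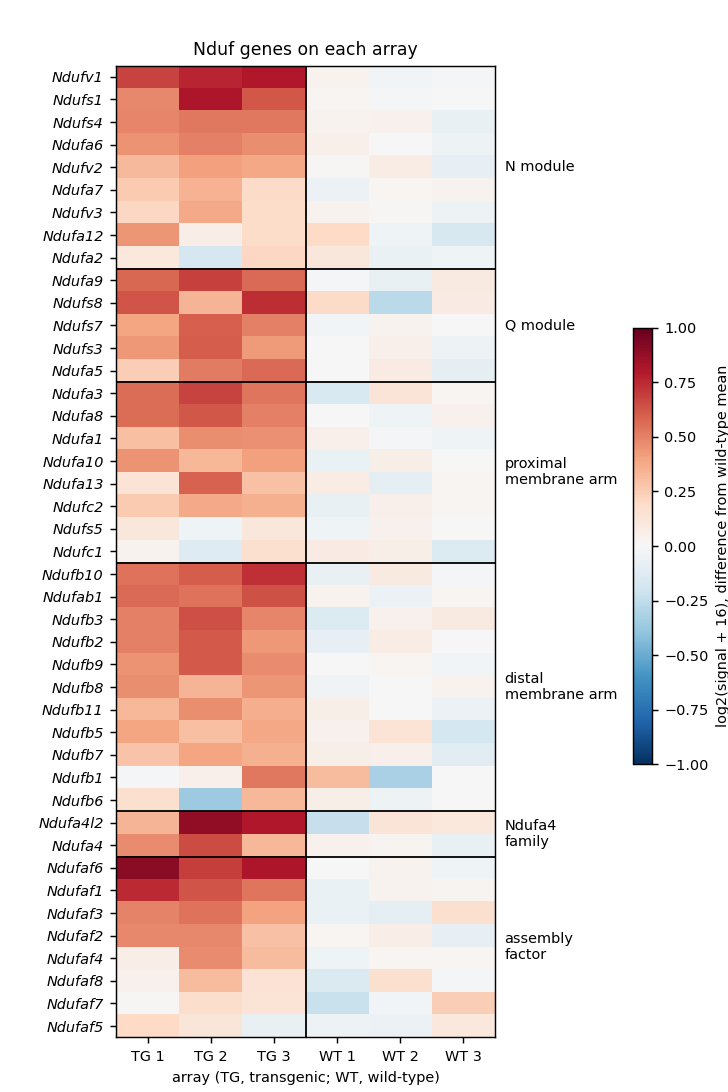
Colour gives the log2(signal + 16) of each tested Nduf gene on each array minus the mean of its wild-type arrays, with transgenic arrays (TG) left of wild-type arrays (WT) and genes ordered by module. Most subunit rows are red on all 3 transgenic arrays, while Ndufs5, Ndufc1, Ndufb6 and Ndufa2 turn blue on transgenic 2.

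The shift was of like size on each transgenic array. The median deviation of the 33 subunit genes from their wild-type mean was 0.43, 0.47 and 0.44 log2 units on transgenic 1, 2 and 3. On wild-type 1, 2 and 3 it was 0.02, 0.02 and -0.01, small by construction, as each gene is centred on its wild-type arrays. The same value over all tested genes was 0.05, 0.05 and 0.02 on the transgenic arrays. Transgenic 2 held the highest transgenic signal for 19 of the 33 subunit genes and the lowest for 10. The coefficient of variation among 3 arrays had a median over these genes of 6.23% in transgenic and 4.43% in wild-type muscle. The widest were 23.6% in transgenic and 23.9% in wild-type muscle.

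Fibre markers were bright on all arrays, and some markers of other cell types, mainly endothelial ones, differed between genotypes. Of the 7 muscle fibre markers, Myh1, a fast myosin, rose and 6 did not pass, and their summed signal was 128126 to 147255 on transgenic and 116578 to 147457 on wild-type arrays. Of 7 endothelial markers 6 rose and Tek did not pass, and their sum was 3479 to 3858 on transgenic and 1926 to 2040 on wild-type arrays. In whole muscle, more cells of a type and more RNA per cell cannot be told apart, and the part of endothelial cells in the subunit result was not tested. The sum of 5 adipocyte markers ran from 12706 to 17366 on transgenic and from 11500.5 to 26419.5 on wild-type arrays, with 0 of 5 passing. Brown adipocyte markers Ucp1 and Cidea summed to 91.1, 655 and 77.4 on transgenic 1, 2 and 3, and to 136.1, 56.6 and 4156 on wild-type 1, 2 and 3. Without wild-type 3 and transgenic 2, a choice made after seeing these values, 22 subunit genes rose and the median difference was 0.40. The part of brown fat in the subunit result was not tested. The 6 leukocyte markers summed to 1533 to 2070 on transgenic and 2171 to 2450.5 on wild-type arrays. Only 4 of them were tested, as Cd3e and Cd79a lay below the limit. Lyz2, a macrophage lysozyme, fell, and Ptprc, Cd68 and Csf1r did not pass. The fibroblast, Schwann cell and erythroid lists had 0 members that passed limma in either direction. Tested were 4 of 4 fibroblast, 2 of 4 Schwann cell and 1 of 4 erythroid genes. The erythroid gene tested, Alas2, differed by 0.73 (limma adjusted p = 0.112).

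Promoters of the subunit genes were read for the element that ERR receptors bind, as the transgene encodes such a receptor. RefSeq sequences (GRCm38.p6) from 250 bases before to 50 after the gene start were matched for 31 of the 34 subunit genes, and motifs were searched on both strands. The full element TCAAGGTCA was in 0 of the 31 and in 0.466% of all 27025 genes with a promoter sequence. The looser TNAAGGTCA, which contains it, was in 1 of 31 (3.23%), Ndufb4, beside 1.43% of all genes. Its core hexamer AGGTCA, which also lies within the longer forms, was in 7 of 31 (22.6%), beside 18.1% of all genes. The motif core of NRF1, another activator of respiratory genes, GCGCATGC, was in 2 of 31 (6.45%), Ndufa6 and Ndufa8, beside 3.05% of all genes. Among the 22 risers with a promoter sequence, AGGTCA was in 4 (18.2%) and TNAAGGTCA in 0. Among the 8 tested subunit genes with a promoter sequence that did not pass, AGGTCA was in 2 (25%) and TNAAGGTCA in 0. These matches describe letters in a short window only. The promoters below are shown because they hold the TNAAGGTCA match (Ndufb4), the NRF1 matches (Ndufa6 and Ndufa8), or an AGGTCA match upstream of a gene among the 8 subunit genes with the largest rises (Ndufb10 and Ndufs8). Capitals mark the motif or its reverse complement.
Ndufb4, chr16:37654319-37654618, minus strand: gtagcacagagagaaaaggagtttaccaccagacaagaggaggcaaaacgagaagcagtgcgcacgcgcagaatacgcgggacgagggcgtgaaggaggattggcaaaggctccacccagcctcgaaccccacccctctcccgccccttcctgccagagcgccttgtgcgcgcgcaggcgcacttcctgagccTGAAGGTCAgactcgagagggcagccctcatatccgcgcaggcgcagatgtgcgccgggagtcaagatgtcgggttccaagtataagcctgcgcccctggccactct
Ndufa6, chr15:82354242-82354541, minus strand: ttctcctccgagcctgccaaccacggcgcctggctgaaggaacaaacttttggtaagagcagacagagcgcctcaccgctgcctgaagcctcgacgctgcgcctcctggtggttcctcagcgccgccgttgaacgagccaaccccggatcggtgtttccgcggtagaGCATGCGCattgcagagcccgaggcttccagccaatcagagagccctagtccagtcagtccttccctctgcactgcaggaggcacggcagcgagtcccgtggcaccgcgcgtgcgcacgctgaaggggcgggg
Ndufa8, chr2:36049289-36049588, minus strand: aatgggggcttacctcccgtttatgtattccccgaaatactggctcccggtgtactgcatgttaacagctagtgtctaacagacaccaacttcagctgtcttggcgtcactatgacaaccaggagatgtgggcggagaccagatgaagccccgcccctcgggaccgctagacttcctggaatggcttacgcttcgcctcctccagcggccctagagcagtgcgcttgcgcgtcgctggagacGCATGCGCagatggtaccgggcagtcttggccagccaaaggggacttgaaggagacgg
Ndufb10, chr17:24724374-24724673, minus strand: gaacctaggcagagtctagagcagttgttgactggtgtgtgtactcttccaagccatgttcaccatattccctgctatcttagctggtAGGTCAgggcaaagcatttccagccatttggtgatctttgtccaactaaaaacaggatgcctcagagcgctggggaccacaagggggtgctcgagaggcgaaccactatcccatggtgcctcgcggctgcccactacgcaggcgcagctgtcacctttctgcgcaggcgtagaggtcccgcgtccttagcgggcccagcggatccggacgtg
Ndufs8, chr19:3912725-3913024, minus strand: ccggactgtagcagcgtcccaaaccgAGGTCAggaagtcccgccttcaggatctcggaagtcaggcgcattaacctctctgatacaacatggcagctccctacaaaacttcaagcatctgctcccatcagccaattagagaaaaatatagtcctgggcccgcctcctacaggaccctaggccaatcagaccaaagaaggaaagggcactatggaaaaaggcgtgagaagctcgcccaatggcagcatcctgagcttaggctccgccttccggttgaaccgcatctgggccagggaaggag

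All 6 core subunit genes measured rose, and 18 of 27 tested accessory subunit genes rose, a contrast between these groups that was not tested. The core genes had a median log2 difference of 0.53 and the accessory genes one of 0.40. Ndufv1, the flavin-binding subunit that accepts electrons from NADH, gave 6675, 7079.7 and 7272 on transgenic arrays, against 4284, 4098 and 4148 on wild-type arrays. At the brightest probe sets it was the subunit gene with the largest difference, 0.74 (SE 0.09, limma adjusted p = 0.000458), with tight groups far apart. Ndufs1, the large iron-sulphur subunit of the N module, gave 6515, 8205 and 7202 on transgenic arrays, against 4724, 4604 and 4674 on wild-type arrays. Its difference was 0.64 (SE 0.10, limma adjusted p = 0.00263), and transgenic 2 was highest. Ndufv2, which holds the cluster beside the flavin, gave 9644, 10192 and 10049 on transgenic arrays, against 7742, 8091 and 7246 on wild-type arrays. This was the smallest change among the core genes, 0.37 (SE 0.09, limma adjusted p = 0.0191). It did not pass without wild-type 1 or without any 1 of transgenic 1, 2 and 3 (limma adjusted p between 0.0554 and 0.0593).

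**Figure D2:**
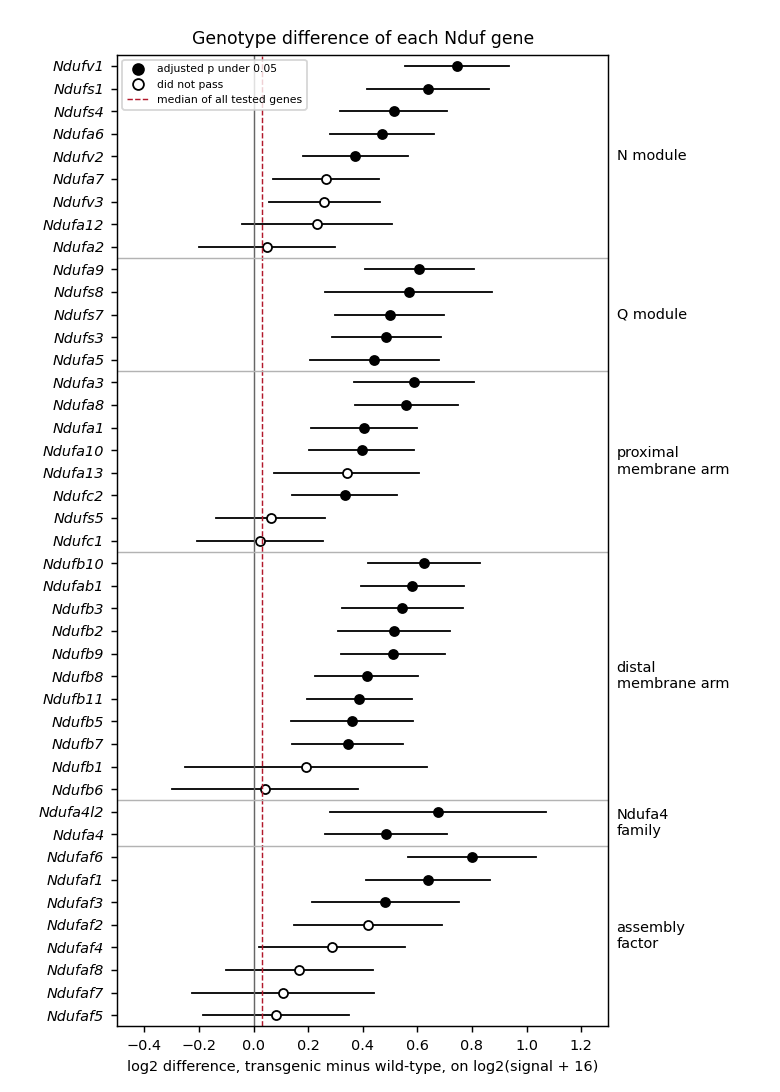
Points give the log2 difference, transgenic minus wild-type, of each tested Nduf gene by its brightest probe set, and lines the 95% confidence interval from limma. Filled points passed at an adjusted p under 0.05. All 43 points lie above 0 (with arrays scaled to a common median, Ndufa2, Ndufb6, Ndufc1, Ndufs5, Ndufaf5 and Ndufaf7 lie below it), and every Q module gene is filled, at 0.44 to 0.61.

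In the N module, 5 of 9 genes rose, with a median difference of 0.37. Beyond the core genes, Ndufs4, an accessory subunit whose loss in mice causes a fatal brain disease, gave 3596, 3706 and 3698 on transgenic arrays, against 2626, 2638 and 2434 on wild-type arrays. The groups stood apart, with a difference of 0.51 (SE 0.09, limma adjusted p = 0.0043). Ndufa6, which binds the mitochondrial acyl carrier protein and whose promoter is printed above, gave 4810.4, 4976.5 and 4853 on transgenic arrays, against 3641.5, 3505 and 3397.5 on wild-type arrays. Its difference came to 0.47 (SE 0.09, limma adjusted p = 0.00559), and the transgenic arrays varied little.

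The N module genes that did not pass differ among themselves. Ndufa7, an accessory subunit, gave 5939.6, 6303.5 and 5679 on transgenic arrays, against 4772, 5019 and 5094 on wild-type arrays. The groups of Ndufa7 did not overlap (0.27, limma adjusted p = 0.0799), nor did those of the accessory subunit Ndufv3 (0.26, limma adjusted p = 0.101). Ndufa12, the mature counterpart of the assembly factor Ndufaf2, gave 10554.5, 8132 and 8835 on transgenic arrays, against 8936, 7551 and 6926 on wild-type arrays. Its groups overlapped (0.23, limma adjusted p = 0.275), and its other tested probe sets gave 0.06, 0.19 and, at the dimmest, -0.03. Ndufa2, an accessory subunit with a thioredoxin-like fold, gave 4946, 4104 and 5323 on transgenic arrays, against 4971, 4387 and 4475 on wild-type arrays. Transgenic 2 was the lowest of all 6, and the 95% interval of the Ndufa2 difference ran from -0.20 to 0.30.

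In the Q module all 5 genes rose, with a median difference of 0.50. Ndufs7, whose cluster hands electrons to ubiquinone, gave 6836, 7837 and 7346 on transgenic arrays, against 5078, 5314 and 5160.3 on wild-type arrays. Its difference was 0.50 (SE 0.09, limma adjusted p = 0.00526). Ndufs3, a core subunit of the same arm, gave 8079, 9093 and 8034 on transgenic arrays, against 5995, 6193 and 5762 on wild-type arrays, and rose by 0.49 (SE 0.09, limma adjusted p = 0.00631). In both genes transgenic 2 was highest. Ndufa9, an accessory subunit at the junction with the membrane arm, gave 7040.4, 7599.7 and 7005 on transgenic arrays, against 4676, 4486 and 5031 on wild-type arrays. With 0.61 (SE 0.09, limma adjusted p = 0.00179) it had the largest difference of this module at the brightest probe sets.

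Ndufs8, a core subunit that holds a pair of clusters, was the most variable of this module at its brightest probe set. That probe set gave 10985, 8971 and 11825 on transgenic arrays, against 8102, 5870.0 and 7496 on wild-type arrays. Wild-type 2 was lowest, and the difference was 0.57 (SE 0.14, limma adjusted p = 0.0243). It did not pass without transgenic 1, transgenic 3 or wild-type 2 (limma adjusted p between 0.0896 and 0.0955). Of the other 5 Ndufs8 probe sets, 4 were less variable and gave larger differences, between 0.81 and 0.91, with limma adjusted p from 0.000338 to 0.000622. The dimmest gave 0.28 and did not pass (limma adjusted p = 0.384). Ndufa5, an accessory subunit of the Q module, rose at both its probe sets, by 0.44 (SE 0.11, limma adjusted p = 0.0237) and 0.67 (SE 0.10, limma adjusted p = 0.00183). The brighter did not pass without transgenic 2, transgenic 3, wild-type 1 or wild-type 2 (limma adjusted p between 0.0526 and 0.0832).

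In the proximal membrane arm, 5 of 8 genes rose, with a median difference of 0.37. Ndufa3, a small single-helix accessory subunit, gave 9012, 9773 and 8876 on transgenic arrays, against 5509.6, 6710.3 and 6196.5 on wild-type arrays. Its difference was 0.59 (SE 0.10, limma adjusted p = 0.00364). Ndufa8, an accessory subunit that faces the intermembrane space and whose promoter is printed above, gave 6517, 6802.5 and 6298.5 on transgenic arrays, against 4432, 4304 and 4552 on wild-type arrays. The groups were narrow and well apart, and the difference was 0.56 (SE 0.09, limma adjusted p = 0.00214). Ndufa1 (0.40, limma adjusted p = 0.0146), Ndufa10 (0.40, limma adjusted p = 0.0146) and Ndufc2 (0.33, limma adjusted p = 0.0323) rose too. Ndufa10, an accessory subunit of the nucleoside kinase family, gave 8552, 7879 and 8324 on transgenic arrays, against 5974, 6525 and 6292 on wild-type arrays. Ndufc2, an accessory membrane subunit, gave 7664, 8317 and 8174 on transgenic arrays, against 6068, 6618 and 6456 on wild-type arrays. Neither overlapped between genotypes. Ndufa1 did not pass without transgenic 3 or wild-type 2 (limma adjusted p = 0.0533 and 0.0628), and Ndufa10 without transgenic 1 or wild-type 1 (limma adjusted p = 0.0723 and 0.0618). Ndufc2 passed with wild-type 3 left out and did not pass with any other array left out (limma adjusted p between 0.0701 and 0.115).

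Ndufc1, Ndufs5 and Ndufa13 of this arm did not pass. Ndufc1, an accessory subunit at the matrix-side base of the arm, gave 10477, 9328 and 11423 on transgenic arrays, against 10779.7, 10602 and 9278 on wild-type arrays. The groups overlapped, and the 95% interval of its difference, -0.21 to 0.26, lies below the median of the subunit genes. Its dimmer probe set gave 0.22 (limma adjusted p = 0.155), with an interval from 0.02 to 0.43 that includes that median. The probe sets of Ndufc1 thus differ in size. Ndufs5, a subunit of the intermembrane space side, gave 4941, 4425 and 4947 on transgenic arrays, against 4435, 4708 and 4549 on wild-type arrays. The difference of 0.06 had an interval from -0.14 to 0.26, which also lies below that median. Ndufa13, also known as a partner of the transcription factor STAT3, gave 6688.5, 9176 and 7442 on transgenic arrays, against 6412, 5675 and 6163 on wild-type arrays. Transgenic 2 was far above the others, and the difference of 0.34 did not pass (limma adjusted p = 0.0968).

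**Figure D3:**
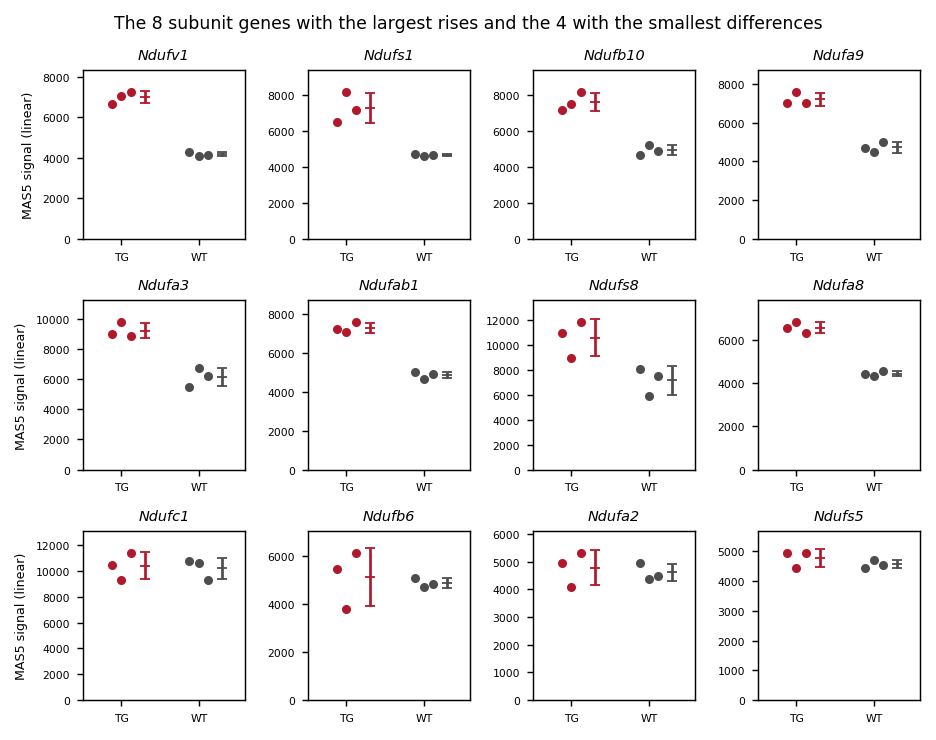
Each panel shows the MAS5 signal on a linear axis from 0 for 1 gene, with a point per array, transgenic (TG) left of wild-type (WT), and the mean with SD (n = 3) beside the points. The upper 8 genes, chosen for the largest differences among those that passed, have separate genotypes. Ndufc1, Ndufb6, Ndufa2 and Ndufs5 in the bottom row, chosen for the smallest differences, overlap. Separation and overlap here largely follow from that choice. Over all tested genes, 18.6% had every transgenic signal above every wild-type signal.

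In the distal membrane arm, 9 of 11 tested genes rose, with a median difference of 0.41. Ndufb10, an accessory subunit of the intermembrane space side, gave 7169, 7499 and 8166 on transgenic arrays, against 4677, 5232 and 4886 on wild-type arrays. Its difference was 0.62 (SE 0.09, limma adjusted p = 0.00184). Ndufab1, the mitochondrial acyl carrier protein, which also serves fatty acid synthesis and iron-sulphur cluster assembly, gave 7227, 7110.2 and 7589.6 on transgenic arrays, against 5007, 4682 and 4942.5 on wild-type arrays. The Ndufab1 difference was 0.58 (SE 0.09, limma adjusted p = 0.0017), and each genotype varied little. Ndufb9, a partner of the acyl carrier protein in this arm, gave 12547, 14047 and 12737 on transgenic arrays, against 9199, 9334 and 9035.5 on wild-type arrays. It rose by 0.51 (SE 0.09, limma adjusted p = 0.00366), and transgenic 2 was highest.

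The 6 remaining risers of the distal arm lay apart by 0.34 to 0.55. They are Ndufb3 (0.55, limma adjusted p = 0.00585), Ndufb2 (0.51, limma adjusted p = 0.00536), Ndufb8 (0.41, limma adjusted p = 0.0109), Ndufb11 (0.39, limma adjusted p = 0.0167), Ndufb5 (0.36, limma adjusted p = 0.0444) and Ndufb7 (0.34, limma adjusted p = 0.0372), all accessory subunits. Ndufb2 gave 5814.5, 6280.5 and 5546 on transgenic arrays, against 3886, 4329.6 and 4115 on wild-type arrays. Ndufb8 gave 7691, 7072 and 7561 on transgenic arrays, against 5435, 5564 and 5727 on wild-type arrays. In both, and in the next pair, every transgenic array was above every wild-type array. Ndufb11 gave 8247, 9041 and 8419 on transgenic arrays, against 6806, 6548 and 6286 on wild-type arrays. Ndufb7 gave 5162, 5587 and 5439 on transgenic arrays, against 4432, 4407 and 3914 on wild-type arrays. The calls of Ndufb5 and Ndufb7 were lost with any 1 array left out (limma adjusted p between 0.0559 and 0.143). Those of Ndufb8 (without transgenic 1 or wild-type 2) and Ndufb11 (without transgenic 2 or wild-type 2) were lost at limma adjusted p between 0.0502 and 0.0671. Ndufb6, another accessory subunit, gave 5444, 3779.9 and 6135 on transgenic arrays, against 5081, 4697 and 4852 on wild-type arrays. Transgenic 2 was lowest and transgenic 3 highest of all, so that the difference was 0.04 (limma adjusted p = 0.899). Its other probe set gave 4635, 4699.7 and 4661 on transgenic arrays, against 3561, 3971 and 3765 on wild-type arrays, and rose by 0.31 (limma adjusted p = 0.0466). Ndufb1 gave 201.1, 211.0 and 299.6 on transgenic arrays, against 256.7, 158.4 and 203.7 on wild-type arrays, which overlap (limma adjusted p = 0.602). Ndufb4 was not tested, as its only probe set with a single gene averaged 41.2 ± 14.7 on transgenic and 27.4 ± 5.77 on wild-type arrays (SD, n = 3 each).

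Probe sets of the same gene did not always give the same call. Of 84 tested Nduf probe sets, 49 rose, 0 fell and 35 did not pass, beside 6.38% higher among all tested probe sets, and 1, the dimmest of Ndufa12, was lower in transgenic muscle. Among 22 genes with at least 2 tested probe sets, all probe sets rose in 6, none passed in 4 and the calls were mixed in 12. Ndufv1 rose at all 3 probe sets, by 0.52 to 0.74. Ndufv2 rose at all 3 too, but by 0.37, 0.53 and 1.08, and the widest belongs to a probe set with the suffix x, which marks probes that can also match other sequences. The suffix is carried by 14 tested Nduf probe sets, of which 9 rose. Among them are the brightest ones of Ndufv1, Ndufa3, Ndufb11 and Ndufa12, and 3 of the 4 Ndufs8 probe sets with the larger differences. The Ndufv2 probe set with the suffix gave 4999, 5714 and 3449 on transgenic arrays, against 1749, 2038 and 2905 on wild-type arrays. Of these, transgenic 3 and wild-type 3 were closest to each other. Ndufb2 rose by 0.51 and 0.79 at its bright probe sets and not at its dimmest (0.21, limma adjusted p = 0.645). In Ndufa7, 1 of 5 probe sets rose, by 0.50 (limma adjusted p = 0.0108), and the other 4, all brighter, gave 0.20 to 0.30. For Ndufa10, Ndufa3 and Ndufb8 the probe set that did not pass was dim, with means of 306, 49.7 and 58.2 over the 6 arrays. In Ndufab1, 3 of 5 rose, and in Ndufs4, 2 of 3, with differences of 0.37 to 0.70 and 0.39 to 0.51. In Ndufb11, Ndufb7 and Ndufc2 the probe sets that did not pass gave 0.23 to 0.31. A further 10 probe sets name Nduf genes together with other genes and were left out of the counts. Of the 9 of them that were tested, 3 rose and 0 fell.

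**Figure D4:**
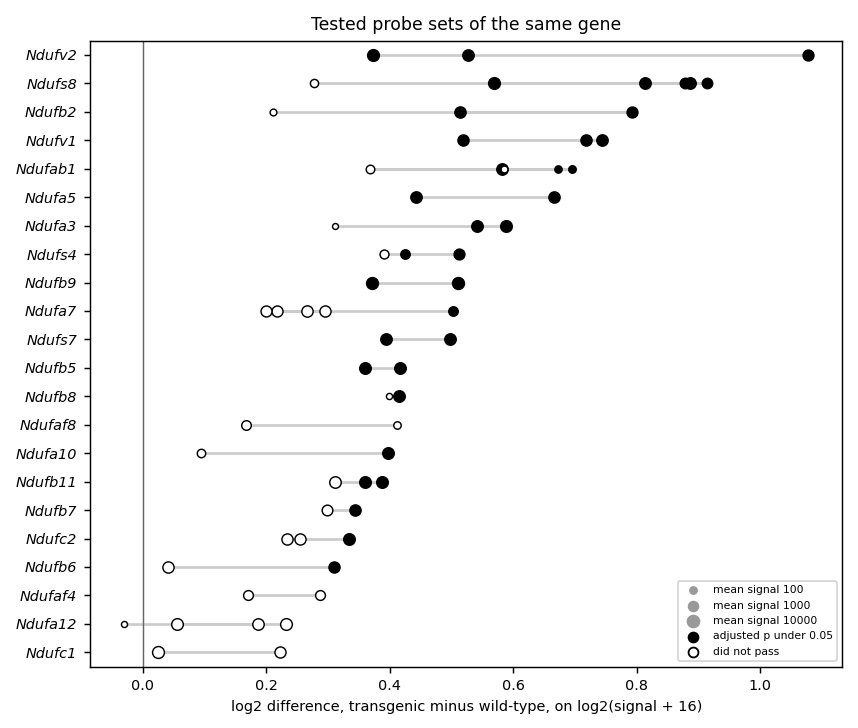
Each row shows the tested probe sets of 1 Nduf gene by log2 difference, transgenic minus wild-type, with larger points for higher mean signal and filled points for an adjusted p under 0.05. The widest spreads are in Ndufv2 (0.37 to 1.08) and Ndufs8 (0.28 to 0.91), and only the dimmest probe set of Ndufa12 lies below 0.

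Assembly factors bind intermediates of complex I and are not part of the finished enzyme. Of the 8 Ndufaf genes, 3 rose, 0 fell and 5 did not pass limma, beside 7.65% higher and 5.75% lower over all tested genes. Their median log2 difference was 0.35. At an unadjusted p under 0.05, 5 were higher and 0 lower, beside 15.5% and 12.4% of all tested genes. All transgenic signals lay above all wild-type signals at 5 of the 8, beside 18.6% of all tested genes. Ndufaf6, which acts early on the Q module and its membrane anchor, gave 1236, 1060.4 and 1155 on transgenic arrays, against 655.5, 667 and 634 on wild-type arrays. Its difference of 0.80 (SE 0.11, limma adjusted p = 0.000969) was the largest of all Nduf genes at their brightest probe sets, with wild-type arrays nearly level. Ndufaf1, part of the complex that assembles the proximal membrane arm, gave 1744, 1603 and 1503 on transgenic arrays, against 984, 1059 and 1051.5 on wild-type arrays. It rose by 0.64 (SE 0.10, limma adjusted p = 0.00279), with no overlap. Ndufaf3, which works on the Q module together with Ndufaf4, gave 566, 585 and 529 on transgenic arrays, against 378, 368 and 445 on wild-type arrays. It rose by 0.48 (SE 0.12, limma adjusted p = 0.0284), and wild-type 3 was closest to the transgenic group. Its call was lost without transgenic 1, transgenic 2, wild-type 1 or wild-type 2 (limma adjusted p between 0.0823 and 0.111). It was also lost with median scaling (limma adjusted p = 0.128) and without the intensity trend (limma adjusted p = 0.0848).

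The other assembly factors lay on either side of overlap between the genotypes. Ndufaf2, the paralogue of Ndufa12 that helps to add the N module, gave 432.5, 431 and 378.5 on transgenic arrays, against 309.9, 319.5 and 287 on wild-type arrays. The groups did not overlap, and the difference of 0.42 fell just short (SE 0.12, limma adjusted p = 0.0523). It passed with robust variance estimates (limma adjusted p = 0.0489) and with the filter at the 60th percentile (limma adjusted p = 0.0363). Ndufaf4 gave 997, 1328 and 1191 on transgenic arrays, against 923, 966 and 965 on wild-type arrays. Here too there was no overlap, but the transgenic arrays spread widely, and neither its brighter nor its dimmer probe set passed (limma adjusted p = 0.164 and 0.33). Ndufaf5, an enzyme that modifies Ndufs7, gave 633, 598 and 519 on transgenic arrays, against 527.5, 527 and 592 on wild-type arrays. Ndufaf7, a methyltransferase that acts on a core subunit, gave 260.1, 295 and 286 on transgenic arrays, against 219, 254 and 310.5 on wild-type arrays. Both overlapped, with differences of 0.08 and 0.11 that turned to -0.07 and -0.04 with arrays scaled to a common median. Ndufaf8, a partner of Ndufaf5, gave 858, 1036 and 919 on transgenic arrays, against 748, 929 and 823 on wild-type arrays, with a difference of 0.17 (limma adjusted p = 0.429).

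**Figure D5:**
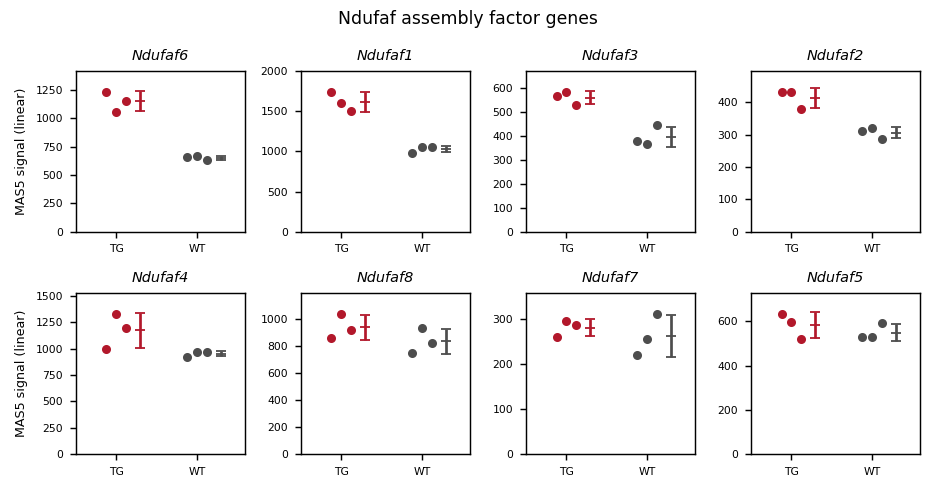
Panels show the MAS5 signal of each Ndufaf gene on a linear axis from 0, a point per array, transgenic (TG) left of wild-type (WT), with mean and SD (n = 3). Ndufaf6, Ndufaf1, Ndufaf3, Ndufaf2 and Ndufaf4 show no overlap, and Ndufaf8, Ndufaf7 and Ndufaf5 overlap. Over all tested genes, 18.6% had every transgenic signal above every wild-type signal.

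Ndufa4 and its paralogue Ndufa4l2 both rose. Ndufa4, assigned to cytochrome c oxidase, gave 8900.4, 10079.6 and 8079.6 on transgenic arrays, against 6619.5, 6517.5 and 6103 on wild-type arrays, a difference of 0.49 (SE 0.10, limma adjusted p = 0.0114). Ndufa4l2, a target of hypoxia-inducible factor that vascular mural cells express, gave 223, 334 and 312.5 on transgenic arrays, against 145, 191 and 187 on wild-type arrays. The Ndufa4 call was lost with median scaling (limma adjusted p = 0.051), without the filter (0.0504) and without the intensity trend (0.0876). Neither gene overlapped between genotypes, and for Ndufa4l2 the difference was 0.67 (SE 0.18, limma adjusted p = 0.035). Its call was lost without transgenic 2, transgenic 3, wild-type 1 or wild-type 2 (limma adjusted p between 0.0631 and 0.135). It was lost under the same 3 settings as that of Ndufa4 (limma adjusted p = 0.108, 0.0635 and 0.0899).

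The other complex I genes include assembly factors and mitochondrially encoded subunits. Among the 12 other assembly genes tested, limma called 3 higher and 0 lower, with a median of 0.20, and 5 were higher and 0 lower at an unadjusted p under 0.05, beside 7.65% of all tested genes called higher and 15.5% higher at the unadjusted threshold. Dmac2, an assembly factor of the distal membrane arm, gave 543, 540.4 and 582 on transgenic arrays, against 305, 277 and 302 on wild-type arrays. It rose by 0.88 (SE 0.12, limma adjusted p = 0.000932), while its dim probe set gave -0.04. Aifm1, a flavoprotein needed for import of complex I proteins, rose by 0.51 (SE 0.13, limma adjusted p = 0.0249). Acad9, a relative of acyl-CoA dehydrogenases that works with Ndufaf1, rose by 0.45 (SE 0.11, limma adjusted p = 0.0252) at 1 of its 2 tested probe sets and gave -0.01 at the dimmer. Their partner Ecsit did not pass at 0.19 (limma adjusted p = 0.294). Of the mitochondrially encoded subunits, ND5 alone was named by a single-gene probe set. It gave 19976, 21771.5 and 18347 on transgenic arrays, against 19912, 17689 and 15301 on wild-type arrays, which overlap (0.19, limma adjusted p = 0.327).

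The nuclear genes of complexes II to V encode the rest of the respiratory chain and ATP synthase. Among the 40 tested there were 30 that rose and 0 that fell by limma, beside 7.65% and 5.75% of all tested genes. At an unadjusted p under 0.05, 36 were higher and 0 lower, beside 15.5% and 12.4% of all tested genes. Their median difference was 0.41, with a range from -0.19 to 1.08. The counts of risers were 3 of 4 in complex II, 7 of 9 in complex III, 6 of 12 in complex IV and 14 of 15 in ATP synthase. Complex IV had the lowest median of these, 0.32. Differences between complexes, and from complex I, were not tested.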

How the data were processed

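RNA of quadriceps from 3 transgenic and 3 wild-type mice was measured on 6 Affymetrix arrays. The authors deposited 1 table of MAS5 signal intensity values on a linear scale, per the submitters' processing notes. No MAS5 version or scaling target was stated in the sources. Detection calls were not used here. Array number limits the precision. The labels call the arrays biological replicates, without saying whether animals were pooled. The p-values rest on the spread between these samples and on a variance trend that limma fits over all tested probe sets. Values were taken as log2(signal + 16) and tested with limma 3.58.1 in R 4.3.3 (lmFit, then eBayes with an intensity trend), without a block, on probe sets with a mean signal above the 40th percentile. P-values were adjusted by Benjamini-Hochberg over 26995 probe sets, and differences are transgenic minus wild-type. Genes come from the platform annotation, and probe sets that name several genes were left out. All 44 members matched a gene in the RefSeq table. Genes given with values on every array include the 8 subunit genes with the largest rises, the 3 brightest, those whose probe sets gave different calls, all Ndufaf genes, Ndufa4 and Ndufa4l2; the others shown (core subunits, some that did not pass) were added after their values were seen. The members and lists were chosen with earlier results of these data known. The procedure was tested on simulated data with changes larger than the rises of the subunit genes. That test therefore does not show how changes of their size are called. Alternatives were the offset, filter, scaling, variance model, replicate block, probe set rule and each array left out.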

Additional observations from a re-analysis of the deposited data

How the results depend on the processing

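The 24 rises among complex I subunit genes became 15 without the filter, 13 with arrays scaled to a common median and 6 without an intensity trend in limma. With 1 array left out the count was 16 to 22, and 14 of the 24 genes kept their call with each array left out. The median log2 difference of 0.41 became 0.26 with median scaling and 0.31 with quantile normalization, which shifted all genes by -0.14 and -0.04, and was 0.40 to 0.46 with 1 array left out (0.46 without transgenic 1). Of all probe sets, 3115 passed, against 1584 without the intensity trend and 1705 to 3301 with 1 array left out (1916 without transgenic 1, 2073 without transgenic 2, 1705 without wild-type 1 and 1875 without wild-type 2). With the replicate number as a block, 21 subunit genes, 2 assembly factor genes and 2744 probe sets passed. The calls lost under the block were those of Ndufb5 (limma adjusted p = 0.0691), Ndufb7 (0.0654), Ndufc2 (0.0553) and Ndufaf3 (0.0554). Same-numbered arrays correlated at 0.07, -0.08 and -0.02 in their deviations, and arrays with different numbers at -0.09 to 0.11. The labels do not say whether samples were paired, and correlations over so few arrays cannot decide it. Some differences that did not pass changed sign. With median scaling, Ndufa2 was -0.10, Ndufaf5 -0.067, Ndufaf7 -0.036, Ndufb6 -0.11, Ndufc1 -0.13 and Ndufs5 -0.090. With quantile normalization, Ndufb6 was -0.0077 and Ndufc1 -0.13. With 1 array left out, Ndufa2 ran from -0.031 (without transgenic 3) to 0.16, Ndufaf7 from -0.0047 (without wild-type 1) to 0.23, Ndufb6 from -0.10 (without transgenic 3) to 0.24 and Ndufc1 from -0.045 (without transgenic 3) to 0.10. Ndufb6 was also -0.017 without transgenic 1, and Ndufc1 -0.043 without wild-type 3. No subunit or Ndufaf gene was called lower under any alternative run. The cause of these changes was not tested. The offsets, the stricter filter and robust variances left 24 subunit genes called. The only single-gene probe set of Ndufb4 lay below the filter and was not tested.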
